A study of Homo sapiens with 6 samples.

Results

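The genes described here are CA9 and 32 other genes of the hypoxia response, the programme that cells run through the hypoxia-inducible factors (HIF). They are 33 of the 78932 genes in the count table and were found by matching symbols to Ensembl identifiers, and all 33 matched. CA9 heads the set because of its fall in the comparison of docetaxel with control, and the other genes were gathered around it with results of the same comparison known. All values of these genes in that comparison are therefore a description, and no p-value is printed for them. Their calls at a p-value threshold, standard errors and intervals below are descriptive too, since the same comparison served to choose them. A total of 32 of the 33 had enough reads to be tested, among 18040 tested genes.

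The 6 libraries of poly(A) RNA came from cells that the labels call HCC1937, a human breast cancer line known for its BRCA1 mutation and used as a triple-negative model. Docetaxel, a taxane drug that stops cell division by stabilising microtubules, had been given at 8 nM for 24 h to the cells of 3 libraries, and the other 3 were controls, whose vehicle the labels do not name. All libraries share 1 line, and the labels call the 3 libraries of a group biological replicates without saying whether they came from separate cultures, so errors measure the spread between these libraries. The labels name no oxygen tension and no hypoxic sample, so no library serves as a hypoxia reference. Fewer cells that express a gene and less RNA per cell cannot be told apart in such samples.

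Totals ran from 38622062 to 41675186 counts per library, and 0 reads in a library allowed up to 0.0720 to 0.0777 CPM (counts scaled to library size), which covers counting error only. KRT8, KRT18 and KRT7, epithelial keratins, were abundant, with 744.7, 583 and 294 TPM (a level per gene length) in control. Other epithelial markers were low: EPCAM, KRT19, KRT5, KRT14, ESRP1, CLDN3 and GRHL2 had too few reads to test. CDH1 averaged 0.645 CPM in control. The epithelial label was thus met by the 3 keratins and not by these 8 markers. CLDN4, the remaining marker, had enough reads to test, and its level is not given here. The identity of the line was not tested. The summed level of the 12 epithelial markers was 2840 to 2930 CPM in the controls and 3290 to 3340 CPM in docetaxel libraries, and that of 10 fibroblast markers 512 to 523 and 486 to 504 CPM. The summed level of 10 leukocyte and endothelial markers was 4.44 to 5.97 CPM in the controls and 6.08 to 7.84 CPM in docetaxel libraries. Of the markers with enough reads, 3 of 5 epithelial, 0 of 4 fibroblast and 1 of 6 leukocyte and endothelial genes were called, all higher. The last was CD14 (edgeR adjusted p = 0.0377). PTPRC, the pan-leukocyte marker, had a single read in 1 library, and none of these 32 markers was at 0 in all libraries. Their part in the results below was not tested.

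In cells with enough oxygen, the prolyl hydroxylases EGLN1, EGLN2 and EGLN3 mark HIF α subunits, the VHL ubiquitin ligase recognises the mark and the subunits are degraded. HIF1AN hydroxylates an asparagine in the same subunits and so blocks their contact with coactivators. When oxygen is scarce the α subunits HIF1A or EPAS1 (HIF-2α) escape, pair with ARNT and bind the letters ACGTG or GCGTG in target genes, which adjust pH, glucose use, mitochondria, blood supply and matrix. Some of the sensors are targets themselves, which makes a feedback loop.

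Docetaxel libraries had lower CA9, HIF1A, BNIP3, SLC2A3 and PFKFB4 RNA, whether or not the trend with GC content described below was taken out. A gene is called here at an adjusted p under 0.05 in edgeR's quasi-likelihood test over all 18040 tested genes. In that fit 11 of the 32 tested hypoxia genes were called lower and 2 higher. The other 19 were not called. Over all tested genes 7.82% were called lower, 9.14% higher and 17.0% in either direction. That is 1649 genes higher and 1410 lower, against 1096 higher and 1866 lower when libraries were scaled by their totals alone. The 3 libraries of each group did not overlap for 12 genes that were lower and 3 that were higher, beside 15.0% and 17.0% of all tested genes (32.0% in either direction). Nothing is read from the members' share, since the comparison served to choose them. The median log2 fold change of the 32 genes was -0.08, beside 0.01 over all tested genes, and 20 of the 32 values were below 0. The 32 values ran from -1.19 for CA9 to 0.34 for EGLN1.

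GC content has to be read beside every one of these values. Over 16421 tested genes with a known GC content, low-GC genes had lower and high-GC genes higher values with docetaxel (Pearson's r = 0.41 and Spearman's coefficient = 0.54, over genes that share the same 6 libraries). The slope of each library's log2 CPM on GC content, relative to the mean of the 6, was -0.126 to -0.050 per 10 percentage points in the control libraries and 0.0447 to 0.0998 in the docetaxel libraries. The same fit was therefore repeated with offsets that take out, library by library, a loess curve on GC content and length. The slopes were negative in every control library and positive in every docetaxel library. A technical GC trend and an effect of docetaxel tied to GC content therefore cannot be told apart, and the offsets take out either. With these offsets 5 hypoxia genes were called lower (CA9, BNIP3, HIF1A, PFKFB4 and SLC2A3) and 1 higher (EGLN1), where 1.81% of all genes were called lower, 3.16% higher and 4.98% in either direction. All 6 of them were among the 13 called without offsets. The median of the 32 was then -0.05, beside 0.01 over all genes.

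**Figure D1:**
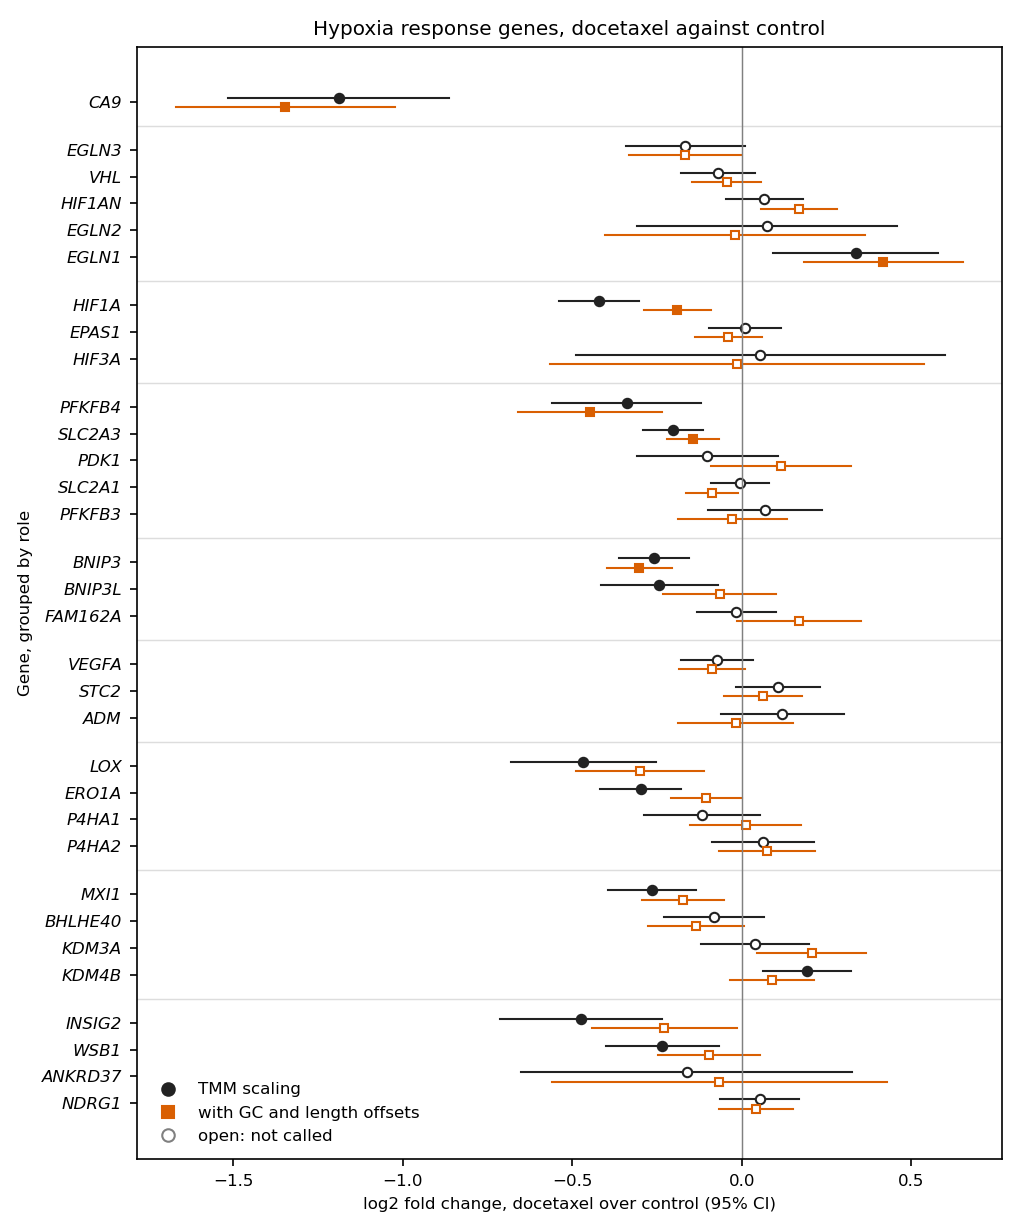
Log2 fold change (docetaxel over control, with 95% confidence interval) of the 32 tested hypoxia genes, grouped by role, with TMM scaling (black circles) and with GC and length offsets (orange squares). Filled symbols are called genes. CA9 stands at -1.19 and -1.35, far below the other genes, and 7 of the 13 called genes have an open square.

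Promoter sequences were taken from RefSeq (GRCh38.p14), 250 bases before to 50 after each transcript start, and 28 of the 33 genes matched. The letters ACGTG and GCGTG were searched on both strands. A CACGTG holds ACGTG on both strands and was counted for each. At least 1 match was present in 25 of these 28 genes (89.3%), beside 69.1% of 11440 tested genes with a promoter. By windows, since a gene can have several, it was 31 of 40 (77.5%) beside 60.2% of the 16431 windows of tested genes and 48.4% of all 35116 windows. ACGTG alone, on either strand, was present in 16 of the 28 genes (57.1%) and in 32.0% of the tested genes. Many of these genes were chosen as HIF targets, so the share is a property of the choice. Among the 28 genes, matches were present in 9 of 9 called lower, 2 of 2 called higher, 13 of 16 not called and in CA12, which was not tested, and a match is not evidence of binding.

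The stretches below belong to CA9, BNIP3, PFKFB4 and HIF1A, which were called lower with and without offsets, and to EGLN1, called higher in both. They run 5′ to 3′ on the strand of the gene, all before the transcript start, with capitals for the searched letters on either strand.
CA9, chr9:35673868-35673927, plus strand: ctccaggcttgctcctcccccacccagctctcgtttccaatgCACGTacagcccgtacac
BNIP3, chr10:131982014-131982083, minus strand: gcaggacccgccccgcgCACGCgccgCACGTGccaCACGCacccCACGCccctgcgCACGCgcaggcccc
PFKFB4, chr3:48556934-48556993, minus strand: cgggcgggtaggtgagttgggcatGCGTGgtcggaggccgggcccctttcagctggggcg
HIF1A, chr14:61695283-61695342, plus strand: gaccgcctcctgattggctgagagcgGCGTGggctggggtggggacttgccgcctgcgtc
EGLN1, chr1:231422288-231422347, minus strand: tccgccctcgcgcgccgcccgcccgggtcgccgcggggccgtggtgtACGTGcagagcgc
In CA9 the match lies 18 to 14 bases before the start and reads ACGTG on the other strand, and it is the only match in that window. In EGLN1 an ACGTG on the gene's own strand lies 13 to 9 bases before the start. BNIP3 had 6 matches between 143 and 100 bases before the start, which include a CACGTG. PFKFB4 and HIF1A had a GCGTG, at 166 to 162 and 204 to 200 bases. HIF1A has a further window at another transcript start (chromosome 14, 61697462 to 61697761), which held no match. A gene called higher and a gene called lower thus carry the same letters close to the start.

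CA9 encodes carbonic anhydrase IX, a cell-surface enzyme that hydrates carbon dioxide and helps cells export acid, and its RNA is widely used as a readout of HIF-1 activity. The gene (ENSG00000107159, GRCh38 chromosome 9, 35673856 to 35681159, plus strand) had 265, 296 and 301 reads in control replicates 1 to 3, against 103, 125 and 125 reads in docetaxel replicates 1 to 3. The highest docetaxel library was thus under the lowest control library by more than the spread within either group. Scaled, CA9 was at 6.99 ± 0.29 CPM in the controls and 3.07 ± 0.34 CPM in docetaxel libraries (SD, n = 3 each). This gave a log2 fold change of -1.19 ± 0.16 (SE), with a 95% confidence interval from -1.52 to -0.86. With GC and length offsets it was -1.35 (interval -1.67 to -1.02). The transcript is GC-rich, at 60.1%, and belongs to the GC-richest of 5 equal bins of genes. In that bin 4 of 3284 genes were called lower, CA9 among them, and 1038 higher. Against a fold of 1.5 in edgeR's glmTreat, CA9 was not called after adjustment.

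CA9 shares exon bases with ARHGEF39, a guanine nucleotide exchange factor gene on the opposite strand (chromosome 9, 35658875 to 35675866). In GENCODE 29 the overlap covers 643 bases, 38.5% of the exon bases of CA9, and the strand setting of the counting is not given in the sources used here, so reads from that stretch cannot be told apart. ARHGEF39 had 631, 728 and 770 reads in the controls against 619, 664 and 613 in docetaxel libraries. Its log2 fold change was -0.07 ± 0.09 (SE), with an interval from -0.26 to 0.12 (edgeR adjusted p = 0.708). ARHGEF39 had more reads than CA9 in each library, and the part of the shared stretch in the CA9 values was not tested. ARHGEF39 was chosen because its exons overlap those of CA9.

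CA12, the other membrane carbonic anhydrase tied to tumour acid export, had 0, 2 and 0 reads in control libraries against 2, 2 and 1 after docetaxel, too few to test. Both groups are at or under 3 reads per library, so no fold is given. CA9 was therefore the only carbonic anhydrase of the membrane pair with a measurable level.

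**Figure D2:**
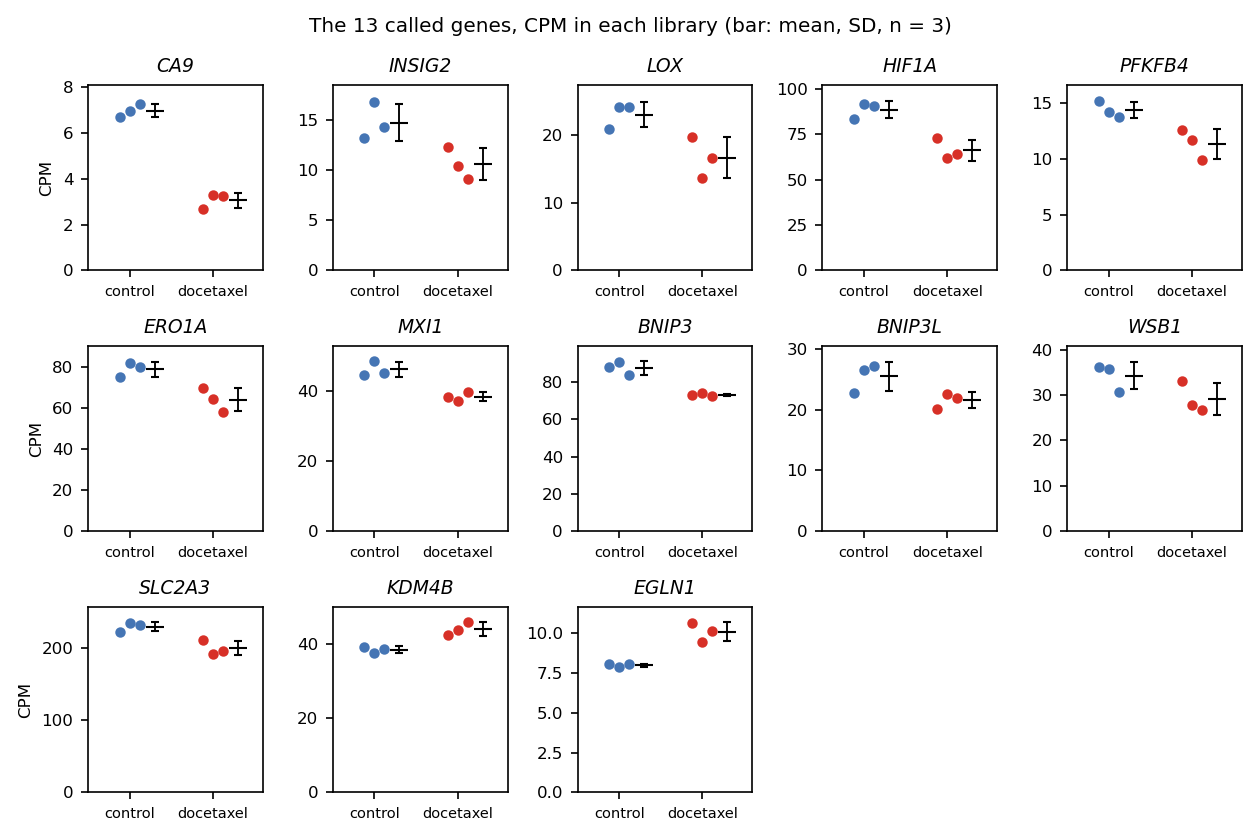
CPM of the 13 called hypoxia genes in each library, with control in blue and docetaxel in red, the mean and SD (n = 3) as black bars, and each vertical axis from 0. In 12 of the 13 the groups do not overlap, and in WSB1 the lowest control library is below the highest docetaxel library. Over all tested genes, 1603 of 1649 called higher and 1334 of 1410 called lower had groups without overlap.

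Among the oxygen sensors, the transcript of EGLN1, the main prolyl hydroxylase for HIF-1α under normal oxygen, was higher with docetaxel. EGLN1 (chromosome 1, 231363751 to 231425044, minus strand) was at 8.04, 7.87 and 8.03 CPM in the controls and 10.6, 9.45 and 10.2 CPM in docetaxel libraries. The groups did not overlap, and the control libraries lay close together. The log2 fold change was 0.34 ± 0.12 (SE), a 1.26-fold higher level. The call was close to the threshold: it was lost in 12 of 17 alternative fits, among them each of the 6 that left out a library. With offsets the value was 0.42 and EGLN1 was called.

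The other sensors were not called. EGLN3, a hydroxylase that is itself strongly hypoxia-inducible, was at 25.3, 25.0 and 24.4 CPM in the controls and 24.3, 19.1 and 23.2 CPM in docetaxel libraries. The groups did not overlap by a small margin, and docetaxel replicate 2 set most of the log2 difference of -0.17 ± 0.09 (SE). EGLN2 was low, at 3.37 ± 0.39 CPM in the controls and 3.54 ± 0.23 CPM in docetaxel libraries (SD, n = 3 each). It shares 30.6% of its exon bases with RAB4B-EGLN2 on the same strand, which had 0 reads. How reads from that stretch were counted is not given, which bears on this low level. VHL, the substrate-binding part of the ubiquitin ligase, was at 70.8, 70.2 and 68.7 CPM in the controls and 68.0, 68.8 and 63.0 CPM in docetaxel libraries, and the groups overlapped. Its interval, from -0.18 to 0.04 on the log2 scale, holds no difference beyond 0.18 in size. HIF1AN had a log2 fold change of 0.07 (interval -0.05 to 0.18), and 0.17 (interval 0.06 to 0.28) with offsets, not called in either. The EGLN1 to EGLN3 ratio of TPM was 0.434, 0.431 and 0.450 in control and 0.598, 0.678 and 0.599 with docetaxel, so the balance of these hydroxylase transcripts differed between the groups without overlap.

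HIF1A, the α subunit behind most of the acute response, was lower with docetaxel, and EPAS1, its relative HIF-2α, differed little. HIF1A (chromosome 14, 61695513 to 61748259, plus strand) was at 83.4, 91.8 and 90.8 CPM in the controls and 72.7, 61.9 and 64.0 CPM in docetaxel libraries. All docetaxel libraries lay below all control libraries. The log2 fold change was -0.42 ± 0.06 (SE), 0.75-fold. HIF1A is AT-rich, with 36.4% GC, and with the offsets the value was -0.19, with an interval from -0.29 to -0.09 and still called. The size of the difference was thus smaller once the GC and length trend had been taken out.

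EPAS1 was at 68.5, 71.0 and 67.2 CPM in the controls and 68.3, 68.9 and 70.9 CPM in docetaxel libraries. The groups overlapped fully, with a log2 fold change of 0.01 (interval -0.10 to 0.12). The TPM ratio of HIF1A to EPAS1, which no scaling between libraries can alter, was 1.72, 1.83 and 1.91 in control and 1.51, 1.27 and 1.28 with docetaxel. HIF1A remained the more abundant transcript per length in all 6 libraries. Their GC contents differ (36.4% and 52.6%), so this ratio carries the GC trend. HIF3A, an α subunit with inhibitory splice forms, was near the floor of the test at 1.75 ± 0.32 CPM in the controls and 1.81 ± 0.33 CPM in docetaxel libraries (SD, n = 3 each), with an interval from -0.49 to 0.60.

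Among the glucose genes, 2 of 5 were called, both lower. SLC2A3, the high-affinity glucose transporter GLUT3, was at 221.7, 234 and 231.6 CPM in the controls and 210.2, 191.8 and 195.7 CPM in docetaxel libraries. Its groups did not overlap, at a log2 fold change of -0.20 ± 0.04 (SE), and -0.14 with offsets. SLC2A1, the transporter GLUT1 and a standard HIF-1 target, was at 154, 158 and 156 CPM in the controls and 154, 155 and 157 CPM in docetaxel libraries. Here the groups overlapped and the interval, from -0.09 to 0.08, was among the narrowest of the set. With offsets SLC2A1 stood at -0.09 (interval -0.16 to -0.01) and was not called, so the offset values of the 2 transporters lay closer together. The ratio of SLC2A3 to SLC2A1 in TPM was 1.32 ± 0.02 in control and 1.16 ± 0.06 with docetaxel (SD, n = 3 each), without overlap. The GC contents are 45.8% and 54.8%, so this ratio carries the GC trend too.

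PFKFB3 and PFKFB4 make and degrade fructose 2,6-bisphosphate, which sets the rate of glycolysis. PFKFB4 was at 15.2, 14.2 and 13.8 CPM in the controls and 12.6, 11.7 and 9.90 CPM in docetaxel libraries, without overlap. Its log2 fold change was -0.34 ± 0.11 (SE), and -0.45 with offsets, and its transcript has 56.8% GC. The call was lost without control replicate 1 or 2 or docetaxel replicate 2 or 3, with log2 fold changes between -0.44 and -0.25 over the fits that left out a library. PFKFB3 was at 20.5 ± 0.7 CPM in the controls and 21.5 ± 0.4 CPM in docetaxel libraries (SD, n = 3 each) and was not called. PDK1, a kinase that inhibits pyruvate dehydrogenase, was at 14.3, 12.8 and 13.6 CPM in the controls and 12.6, 12.1 and 13.2 CPM in docetaxel libraries. Its groups overlapped, with a log2 fold change of -0.10 (interval -0.31 to 0.11), and with offsets the sign turned to 0.12.

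BNIP3 and BNIP3L (NIX) are receptors on the outer mitochondrial membrane that mark mitochondria for autophagy. BNIP3 was at 88.2, 90.8 and 83.5 CPM in the controls and 73.0, 73.9 and 72.6 CPM in docetaxel libraries. The docetaxel values were tightly grouped and all below control, at a log2 fold change of -0.26 ± 0.05 (SE) and -0.30 with offsets. BNIP3L was at 22.8, 26.5 and 27.2 CPM in the controls and 20.1, 22.6 and 21.9 CPM in docetaxel libraries, a narrow gap between the groups. Its log2 fold change was -0.24 ± 0.08 (SE), but -0.07 with offsets, where it was not called. The BNIP3L call was kept in 7 of 17 alternative fits. Leaving out control replicate 2 or 3 or docetaxel replicate 1 or 3 was among those that lost it. The TPM ratio of BNIP3L to BNIP3 was 0.285 ± 0.033 in control and 0.287 ± 0.016 with docetaxel (SD, n = 3 each). Of the gene pairs compared by such a ratio, this pair alone overlapped between the groups. FAM162A, a HIF-1-responsive mitochondrial protein, was at 78.0 ± 4.1 CPM in the controls and 77.2 ± 6.1 CPM in docetaxel libraries (SD, n = 3 each). Its log2 fold change was -0.02, and 0.17 with offsets, not called in either.

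None of the secreted factors was called. VEGFA, the main angiogenic factor under HIF control, was at 77.9, 83.4 and 79.5 CPM in the controls and 78.7, 77.7 and 72.8 CPM in docetaxel libraries, and the groups overlapped. Its log2 fold change was -0.07 (interval -0.18 to 0.03). ADM, the vasodilator adrenomedullin, stood at 0.12 and STC2, the glycoprotein stanniocalcin 2, at 0.11 on the same scale. With offsets ADM was at -0.02.

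Enzymes of collagen and disulfide formation included a pair of called genes. LOX, which crosslinks collagen, was at 20.9, 24.0 and 24.1 CPM in the controls and 19.6, 13.6 and 16.6 CPM in docetaxel libraries. ERO1A, the endoplasmic reticulum oxidase that renews protein disulfide isomerase, was at 74.9, 81.9 and 79.7 CPM in the controls and 69.7, 64.5 and 58.2 CPM in docetaxel libraries. Neither gene had overlapping groups, at log2 fold changes of -0.47 ± 0.10 for LOX and -0.30 ± 0.06 for ERO1A (SE). Both transcripts are AT-rich, with 39.6% and 38.7% GC. With offsets LOX was at -0.30 (interval -0.49 to -0.11) and narrowly missed the call. ERO1A was at -0.10 with offsets (interval -0.21 to 0.0005) and was not called either. The collagen prolyl hydroxylase subunits P4HA1 and P4HA2 were not called, at -0.12 and 0.06, and P4HA1 was at 0.01 with offsets.

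Among the chromatin and transcription genes, MXI1, a MYC antagonist that HIF-1 induces, was lower and KDM4B, a histone H3 lysine demethylase, was higher. MXI1 was at 44.7, 48.5 and 45.2 CPM in the controls and 38.4, 37.1 and 39.7 CPM in docetaxel libraries, without overlap. Its log2 fold change was -0.26 ± 0.06 (SE), and -0.17 with offsets, where it was not called. KDM4B was at 39.3, 37.6 and 38.8 CPM in the controls and 42.4, 43.9 and 46.1 CPM in docetaxel libraries, also without overlap. Its value was 0.19 ± 0.06 (SE). KDM4B has the highest GC content of the set, 61.2%, and with offsets stood at 0.09 and was not called. Its call was lost in 11 of 17 alternative fits, which included leaving out any library except docetaxel replicate 1. KDM3A, a related demethylase, and BHLHE40, a transcriptional repressor, were not called, at 0.04 and -0.08. KDM3A stood at 0.21 with offsets.

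Of the remaining targets, INSIG2, which retains the sterol sensor in the endoplasmic reticulum, was at 13.2, 16.8 and 14.3 CPM in the controls and 12.3, 10.5 and 9.09 CPM in docetaxel libraries. The groups did not overlap, and the log2 fold change was -0.47 ± 0.12 (SE). INSIG2 has the lowest GC content of the set, 35.4%, and was at -0.23 with offsets, where the call was lost. It was also lost when control replicate 2 or docetaxel replicate 3 was left out. WSB1, a ubiquitin ligase part that targets VHL, was at 36.2, 35.8 and 30.8 CPM in the controls and 33.04, 27.7 and 26.6 CPM in docetaxel libraries. It was the only called gene of the set with overlapping groups, at -0.23 ± 0.08 (SE). It stood at -0.10 with offsets, where it was not called, and kept its call in 8 of 17 alternative fits. The call was lost without control replicate 1 or 2 or docetaxel replicate 2 or 3, and with upper-quartile scaling or limma-voom. NDRG1, a stress-responsive differentiation gene, was at 0.05 (interval -0.06 to 0.17). ANKRD37 had 70 to 122 reads per library, with 35.2% of its exon bases shared with UFSP2 on the opposite strand, and an interval from -0.65 to 0.33.

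**Figure D3:**
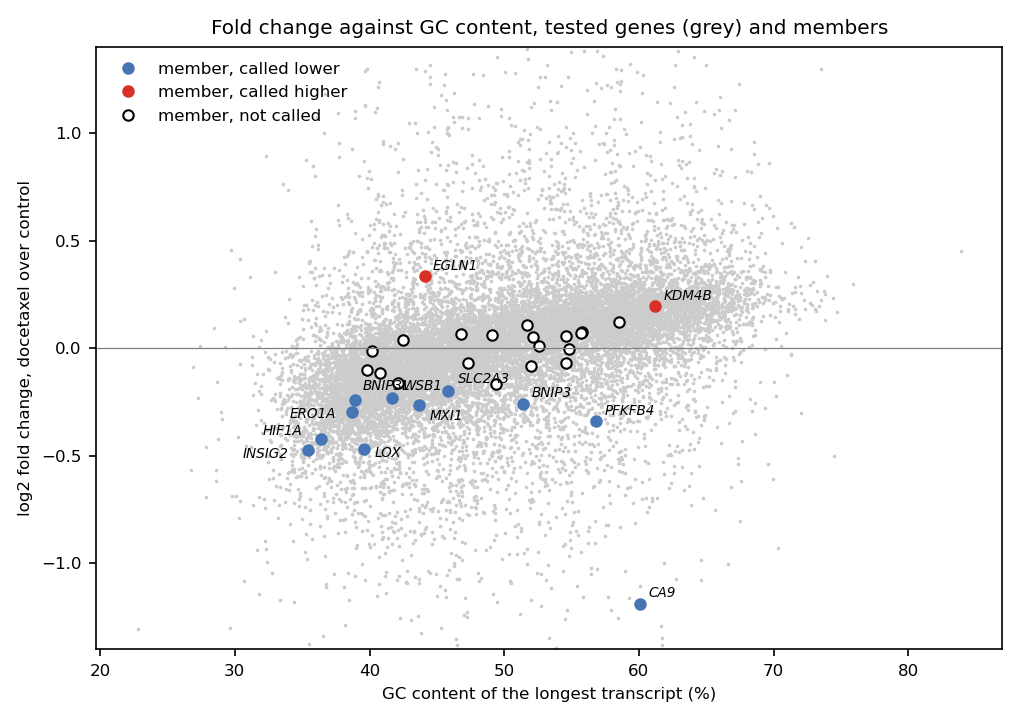
Log2 fold change (docetaxel over control) against GC content of the longest transcript, for 16346 tested genes in grey (75 more lie outside the vertical axis) and the 32 hypoxia genes, filled where called. The cloud slopes upward. INSIG2, HIF1A, LOX, ERO1A and BNIP3L lie at its low-GC end, each below the median of -0.19 in the lowest of 5 equal GC bins. CA9, PFKFB4 and BNIP3 also lie below the medians of their bins, and EGLN1 lies above that of its bin.

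In 5 equal bins of GC content, the 8 hypoxia genes of the lowest bin (22.8% to 41.3% GC) had a median log2 fold change of -0.27, beside -0.19 over the 3285 tested genes there, and 5 of the 8 were called lower. In that bin 945 genes were called lower and 6 higher. The 6 genes in the next bin had a median of -0.18 beside -0.08, and the 6 in the middle bin 0.00 beside 0.01. In the bin above it the 9 hypoxia genes had a median of 0.01 beside 0.10. In the GC-richest bin the 3 hypoxia genes had a median of 0.12 beside 0.18. The members' medians lay under those of all genes in each of the 5 bins, a description that rests on 3 to 9 genes each. No result is drawn from it, since the comparison served to choose the members. Over the 32 genes the log2 fold change and GC content had a Pearson's r of 0.17 and a Spearman's coefficient of 0.48, with the 6 libraries shared by all points.

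The level per length ran over a wide range. In control SLC2A3 was highest, at 88.2 ± 3.2 TPM, followed by SLC2A1 at 66.7 ± 1.7, BNIP3 at 61.2 ± 3.6, HIF1A at 48.7 ± 2.8 and VHL at 36.8 ± 1.1 (SD, n = 3 each). Neighbours in these 5 places were further apart than the sum of their SDs. CA9 was at 12.4 ± 0.4 TPM in control, next to NDRG1 at 12.6 ± 0.3 and HIF1AN at 12.4 ± 0.4, from which it did not differ beyond the spread. The deposited lengths behind these values are 1598 bases for CA9, 12002 for NDRG1 and 13894 for HIF1AN. Places in this order therefore depend on those lengths, which were not checked against the transcripts present. With docetaxel CA9 was at 5.27 ± 0.50 TPM, next to EGLN1 at 5.15 ± 0.40 and PFKFB4 at 5.13 ± 0.65 (SD, n = 3 each). The ratio of CA9 to SLC2A1 in TPM was 0.180, 0.182 and 0.194 in control and 0.0720, 0.0876 and 0.0856 with docetaxel. These HIF-1 targets have 60.1% and 54.8% GC, and their ratio did not overlap between the groups.

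**Figure D4:**
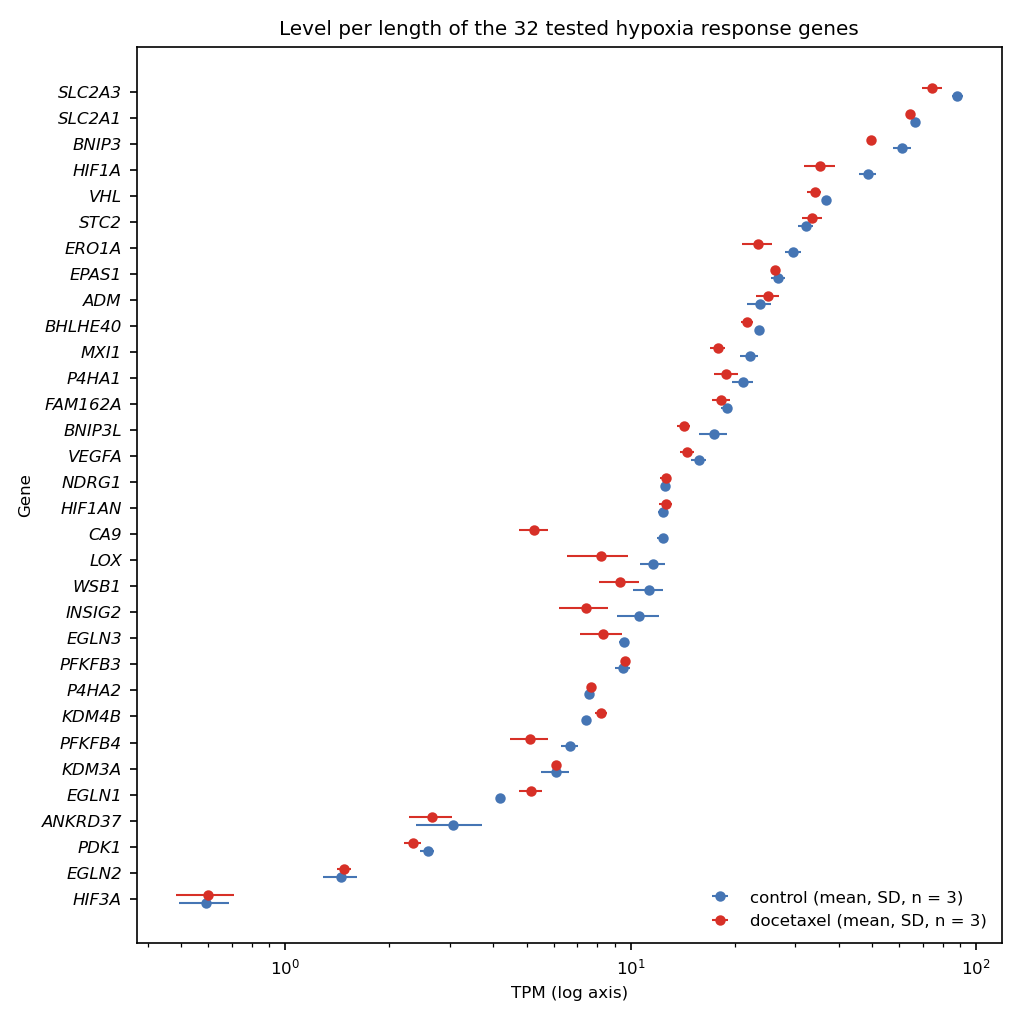
Level per gene length (TPM, log axis) of the 32 tested hypoxia genes, ordered by the control mean, with mean and SD of the 3 control (blue) and 3 docetaxel (red) libraries. CA9 moves from 12.4 to 5.27 TPM, the widest separation in the plot.

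The pathway was also read in 4 further lists of genes that are not in the set. They were chosen with results of these data known, and their counts are set beside the 9.14% of all tested genes called higher and the 7.82% called lower. Of 18 glycolytic HIF targets 7 were called higher and 2 lower, with a median log2 fold change of 0.12. SLC16A3, the lactate exporter MCT4, rose by 0.19 ± 0.04 (SE, edgeR adjusted p = 0.00200), PKM, pyruvate kinase, by 0.14 ± 0.03 (edgeR adjusted p = 0.00347) and PFKL, liver phosphofructokinase, by 0.18 ± 0.04 (edgeR adjusted p = 0.00386). GAPDH and ENO1, glycolytic enzymes, rose by 0.13 and 0.12, from 3100 ± 72 to 3389 ± 101 CPM and from 3265 ± 96 to 3558 ± 125 CPM (SD, n = 3 each). GBE1, the glycogen branching enzyme, went the other way, at -0.38 ± 0.10 (edgeR adjusted p = 0.00726), and so did HK2, hexokinase 2, at -0.22. With offsets 1 gene was called higher and 1 lower. They were PGK1, phosphoglycerate kinase 1, at 0.15 and HK2 at -0.25, and the list's median was 0.00. PFKL and GAPDH changed sign there. ALDOA, a normally abundant aldolase, had 3.22 CPM in control, and how reads that fit several genes were counted is unknown, which bears on any low level. The choice of PGK1, HK2 and ALDOA was made after seeing their values.

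Of 21 tested HIF targets outside glycolysis 3 were called higher and 5 lower, with a median of -0.01. CITED2, which competes with HIF for its coactivators and is itself a HIF target, rose by 0.35 ± 0.05 (SE), from 81.9 ± 1.8 to 104.2 ± 1.8 CPM (SD, n = 3 each), at an edgeR adjusted p of 1.08e-05. The value with offsets was 0.35, also called. HMOX1, heme oxygenase 1, rose by 0.35 ± 0.06 (edgeR adjusted p = 7.71e-05), and by 0.22 with offsets. PLOD2, a collagen lysyl hydroxylase, fell by 0.58 ± 0.10 (edgeR adjusted p = 0.00393), and by 0.27 with offsets, where it was called too. HIGD1A, a mitochondrial HIF-1 target, stood at -0.38 ± 0.08 (edgeR adjusted p = 0.00669), and lost its call with offsets. TFRC, the transferrin receptor, and DDIT4, an inhibitor of mTORC1, were not called, at -0.02 and 0.05. TFRC was at 0.18 and called higher with offsets. In all, 3 genes of the list were called higher and 1 lower with offsets, with a median of -0.05.

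Of 21 genes that control HIF, 5 were called higher and 3 lower, with a median of 0.01. SIAH1, a ubiquitin ligase that acts on the EGLN enzymes, fell by 0.51 ± 0.11 (edgeR adjusted p = 0.00154) and CUL2, the cullin scaffold of the VHL ligase, by 0.29 ± 0.09 (edgeR adjusted p = 0.0153). EIF4EBP1, a repressor of cap-dependent translation, rose by 0.20 ± 0.04 (edgeR adjusted p = 0.00157) and ELOB, the elongin B subunit of the VHL ligase, by 0.17 ± 0.04 (edgeR adjusted p = 0.00647). With offsets 1 of the 21, HSP90AB1, a chaperone that binds HIF-1α, was called (0.11, higher), and EIF4EBP1 was at -0.01. RACK1, which binds HIF-1α apart from VHL, was not called, at 0.10.

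Of 18 other carbonic anhydrase and pH genes only 8 could be tested, with 1 called higher and 2 lower. CA1 and CA6 had 0 reads in all libraries, and CA2, CA3, CA4, CA5A, CA8, CA10, CA13 and SLC4A4 had too few to test. CA11, a carbonic anhydrase-related protein without catalytic activity, was the most abundant of the carbonic anhydrase family, at 74.7 TPM in control, and was not called (0.09, and -0.06 with offsets). SLC4A7, a sodium bicarbonate cotransporter, fell by 0.65 ± 0.16 (edgeR adjusted p = 0.0387) and by 0.42 with offsets, also called. SLC16A1, the lactate transporter MCT1, fell by 0.18 ± 0.04 (edgeR adjusted p = 0.00286), and BSG, its chaperone basigin, rose by 0.18 ± 0.04 (edgeR adjusted p = 0.00107). Neither was called with offsets.

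**Figure D5:**
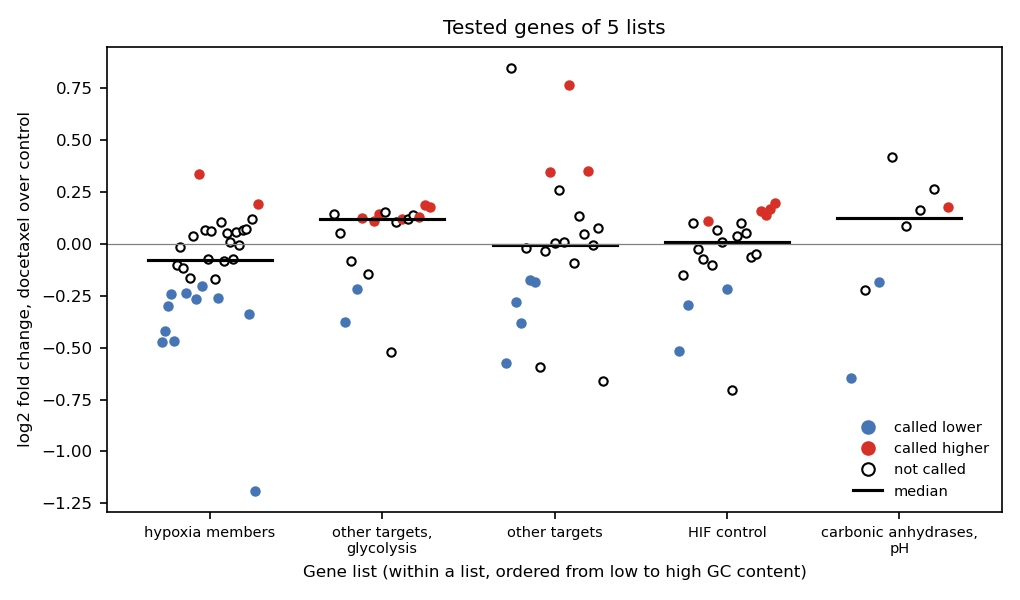
Log2 fold change (docetaxel over control) of the tested genes in the hypoxia set and 4 further lists, ordered within a list from low to high GC content, with medians as black lines. CA9, at -1.19 and on the high-GC side of its list, is the lowest point in the plot.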

How the data were processed

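Poly(A) RNA of 6 HCC1937 libraries was sequenced, per the labels' protocols. The authors deposited raw counts for 78932 Ensembl identifiers beside gene lengths. The submitters' processing notes name featureCounts 2.0.1, MultiQC 1.11 and GRCh38. Aligner, annotation release, strandedness and multi-mapping treatment: not given in the sources used here. Columns were matched to samples by library name, and groups to labels. No library was a copy of another (dispersion index at least 4.92 within groups).

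Members and lists were chosen with earlier results of these data known. Coordinates, exons and GC content (longest transcript) are from GENCODE 29 on GRCh38. The test was edgeR 4.0.16 (R 4.3.3) with filterByExpr, TMM, robust glmQLFit and two-sided glmQLFTest, Benjamini-Hochberg adjusted over 18040 genes at 0.05, and was tested on simulated data. SE is the size of the log2 fold change over the root of F. CPM are TMM-scaled for tested genes and by total counts otherwise and in marker sums, and TPM use the deposited lengths. GC offsets came from loess (span 0.5) on GC content and log2 length, for the 91% of tested genes with a GC value.

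Every member may be named, and from each further list up to 4 called genes of smallest p plus up to 2 with the most reads. Genes outside this rule are marked. A gene of the further lists that the rule names is not reported here. The alternatives comprised scaling by RLE, upper quartile or library size, DESeq2 1.42.0, voom in limma 3.58.1, no filter, a 1 CPM minimum in any 3 libraries, a replicate block, the offsets alone and with that block, glmTreat at 1.5-fold, and omitting each library.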

Additional observations from a re-analysis of the deposited data

How the results depend on the processing

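Of the 13 called hypoxia genes, 4 (CA9, BNIP3, SLC2A3 and HIF1A) were called in all 16 alternative fits other than glmTreat, and 0 of the 13 changed sign in any. Against a fold of 1.5 in glmTreat, 0 hypoxia genes were called lower and 0 higher, CA9 being at a log2 fold change of -1.19, and at an unadjusted p under 0.05 glmTreat had 1 member lower and 0 higher. Over all genes it called 6 higher and 0 lower, with 90 and 60 at an unadjusted p under 0.05, and DESeq2 called the same 13 members as edgeR. The members called lower were 5 with GC and length offsets and 5 with offsets and the replicate block, and 7 to 10 when 1 library was left out (7 without control replicate 2 or docetaxel replicate 3). The members called higher were 1 with RLE scaling, limma-voom, offsets, or offsets with the block, 0 with library-size scaling, no filter or the replicate block alone, and 0 to 1 without 1 library. At an unadjusted p under 0.05 the edgeR count of members higher was 2 with library-size scaling, no filter or the block, and 2 to 3 without 1 library. Over all genes, library-size scaling gave 1096 higher and 1866 lower, offsets 519 higher and 298 lower, offsets with the block 350 and 200, and leaving out 1 library between 990 and 1397 higher and between 740 and 1841 lower (990 and 740 without control replicate 2, 1089 higher without docetaxel replicate 2, 1056 higher and 768 lower without docetaxel replicate 3). CA9 was between -1.25 and -1.12 without 1 library. The cause of these shifts was not tested.

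The labels do not say whether the replicate numbers pair the samples. Same-numbered libraries correlated at 0.00704 to 0.0157 in their deviations, and each correlated best with its own number. Such small correlations cannot settle whether the samples were paired. With the replicate block 10 of the 13 calls were kept.

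Signs turned in genes of the further lists. With offsets, and with offsets and the block, PFKL was at -0.00682 and -0.006345, GAPDH at -0.0137 and -0.0136, TFRC at 0.177 and 0.176, DDIT4 at -0.0868 and -0.0872, EIF4EBP1 at -0.00753 and -0.00784 and CA11 at -0.0556 and -0.0594. Without 1 library DDIT4 ran from -0.00648 (docetaxel replicate 2 left out) to 0.0680 and CA11 from -0.0111 (docetaxel replicate 1 left out) to 0.153. Depth limits CA12 and HIF3A most, HIF3A having 424 reads over all libraries.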
